A study of Homo sapiens with 12 samples.

Results

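The clustered protocadherins were examined across young and radiation-senescent human fibroblasts carrying a control hairpin or a hairpin against FBXO22. They were taken as every gene whose symbol is PCDHA, PCDHAC, PCDHB, PCDHGA, PCDHGB or PCDHGC followed by a number, which gave 55 of 55765 genes in each table. Of these, 16 belong to the alpha cluster, 18 to the beta cluster and 21 to the gamma cluster. PCDHA14, PCDHB17 and PCDHB18 are pseudogenes in the GENCODE annotation, and the others encode proteins. PCDHGB5 was not analysed here.

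Clustered protocadherins are cadherin-family adhesion proteins of the cell surface, best known from neurons, where each cell uses a small set of them as a homophilic identity code. The genes lie in tandem at a single locus. In the alpha and gamma clusters each variable exon has its own promoter and is spliced to constant exons shared by the whole cluster, whereas a beta gene is a single exon with no constant part. In neurons, promoter choice involves CTCF and cohesin, which bring distant enhancers to the chosen promoters, and DNA methylation of the promoters that stay silent. The last gamma genes, PCDHGC3 to PCDHGC5, are the C types, which follow their own rules of expression, and PCDHGC3 is the one widely used outside neurons.

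All cells were HCA2 (also called MJ90), an established line of human skin fibroblasts, grown in DMEM with fetal bovine serum and carrying a doxycycline-inducible short hairpin. The 4 groups, each with 3 libraries, were senescent cells with the FBXO22 hairpin (shFbxo22), young cells with shFbxo22, senescent cells with the luciferase hairpin (shLuc, the control) and young cells with shLuc. FBXO22 is an F-box protein that picks the targets of an SCF ubiquitin ligase. Young cells were at low passage and senescent cells had received 10 Gy of ionizing radiation. The labels do not say whether doxycycline was given to every group, name a single target per hairpin and do not call the 3 libraries of a group separate cultures, so every p-value measures the spread between libraries, which may be technical.

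The targeted gene went against a label. FBXO22 was lower in young shFbxo22 cells than in young shLuc cells, at -0.81 ± 0.15 (log2 fold change ± standard error; adjusted p = 1.07e-06) in the authors' deposited table. It was higher in senescent libraries labelled shFbxo22 than in senescent shLuc libraries, with a log2 fold change of 1.01 ± 0.12 (adjusted p = 7.91e-15) in the authors' deposited table. That group is therefore called the libraries labelled shFbxo22 senescent, and any direction drawn from it rests on the label. All 10 fibroblast markers examined had a base mean of at least 1456 in each of the authors' deposited tables. Of these, 4 rose and 4 fell in senescent against young shLuc cells, beside 21.2% and 21.3% of all genes. DCN was at 2.38 ± 0.09 and THY1 at -0.84 ± 0.09 there in the authors' deposited table. CD3E, a T cell marker, was at 0 in every table, and the summed base mean of the 4 keratinocyte markers was between 3.80 and 14.4. VWF, an endothelial marker with base means between 46.9 and 49.8, was at 1.36 ± 0.30 in senescent against young shLuc cells and 1.26 ± 0.30 in young shFbxo22 against young shLuc cells in the authors' deposited tables. It was at -0.96 ± 0.27 in libraries labelled shFbxo22 senescent against young shFbxo22 cells and -1.18 ± 0.31 in them against senescent shLuc cells in the authors' deposited tables. CDH5, another endothelial marker, had a base mean of at most 0.17 in every comparison. PTPRC, a leukocyte marker, was at 2.88 ± 0.62 in libraries labelled shFbxo22 senescent against senescent shLuc cells in the authors' deposited table, with a base mean of 7.58. It was at -1.71 ± 0.70 in senescent against young shLuc cells, with a base mean of 2.82, and was not called in the other comparisons. CD68, another leukocyte marker, was at 1.20 ± 0.40 in senescent against young shLuc cells and was called in no other comparison. The part of these markers in the protocadherin values was not tested. Values per library were not analysed here, since the tables hold group-level results only.

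Each gene has a pair of quantities. The first is the log2 fold change with its standard error and Wald test, as the authors deposited them, with an adjusted p under 0.05 counted as a call. These fold changes were pulled towards 0 by the authors' fit, most strongly for genes with few reads and by different amounts in different tables. The second is a mean normalized count per group, rebuilt from the base mean (the mean over the 6 libraries of a table) and the fold change, averaged over the 2 tables that hold the group. Because the fold change was pulled towards 0, the means of a table's 2 groups are drawn towards each other, most at low counts. Ratios of printed means therefore need not equal the printed fold changes. This mean carries no error of its own. Its 2 estimates differ most at low counts, as for PCDHB8 in senescent shLuc cells (2.85 and 4.67), and both are printed for some beta genes. In these bulk samples, fewer cells that express a gene and less RNA per cell cannot be told apart. Counting of the constant exons shared by all alpha or all gamma genes, and of near-identical stretches among beta genes, is not given in the sources used here, so values of single members are uncertain to that degree.

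Promoters are shown first, because each member has one of its own and the members of a cluster differ there. RefSeq (GRCh38.p14) promoter sequences, from 250 bases before to 50 bases after each start, were matched by symbol for 46 of the 55 members. PCDHA3, PCDHA13, PCDHA14, PCDHB6, PCDHB11, PCDHB17, PCDHB18, PCDHGA12 and PCDHGC5 had none. PCDHB16, the member with the largest difference between hairpins in young cells, has the promoter below at chr5:141182137-141182436, plus strand, 5′ to 3′, with the word GGTGGCGCTG in capitals.
PCDHB16: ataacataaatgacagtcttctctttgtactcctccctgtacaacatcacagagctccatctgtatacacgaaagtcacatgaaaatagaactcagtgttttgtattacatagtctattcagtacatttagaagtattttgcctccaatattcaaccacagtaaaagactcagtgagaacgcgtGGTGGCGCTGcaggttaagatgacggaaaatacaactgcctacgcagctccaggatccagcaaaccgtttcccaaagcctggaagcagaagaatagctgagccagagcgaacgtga

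That word contains CGCTG, the core of a conserved element known from clustered protocadherin promoters. The 60 bases around the core are given below for members of each cluster, with the core in capitals, all on the plus strand. PCDHA1 and PCDHA6, with base means of at most 1.33, stand for the alpha cluster, which was nearly silent. PCDHB2, PCDHB7 and PCDHB13 were beta genes with large differences. PCDHGB1 and PCDHGA4 are early gamma genes, PCDHGA10 is a late one, and PCDHGC3 is the C type with the highest level.
PCDHA1: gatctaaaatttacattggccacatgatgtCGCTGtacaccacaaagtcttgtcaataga
PCDHA6: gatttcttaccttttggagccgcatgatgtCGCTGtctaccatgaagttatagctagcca
PCDHB2: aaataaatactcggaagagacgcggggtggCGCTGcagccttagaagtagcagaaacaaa
PCDHB7: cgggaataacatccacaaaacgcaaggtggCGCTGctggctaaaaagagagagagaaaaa
PCDHB13: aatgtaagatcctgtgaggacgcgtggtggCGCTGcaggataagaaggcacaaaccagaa
PCDHGB1: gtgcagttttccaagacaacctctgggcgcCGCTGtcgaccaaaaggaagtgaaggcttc
PCDHGA4: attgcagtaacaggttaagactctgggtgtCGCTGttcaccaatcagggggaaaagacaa
PCDHGA10: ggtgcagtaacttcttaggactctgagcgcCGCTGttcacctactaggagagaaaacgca
PCDHGC3: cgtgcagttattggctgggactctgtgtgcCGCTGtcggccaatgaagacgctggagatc

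Within the 100 bases before the start and on the gene's strand, CGCTG was found in 37 of the 46 members with a sequence, against 12.4% of 35116 RefSeq promoter windows. It was there in 8 of 13 alpha, 11 of 14 beta and 18 of 19 gamma genes. Anywhere in the 300 bases and on either strand it was found in 40 of 46 members and 48% of all windows. The members without it were PCDHA4, PCDHA7, PCDHA9, PCDHA11, PCDHB1 and PCDHB14. Of these, PCDHA7 had the highest base mean of any alpha gene, 8.77, so the alpha pair shown does not stand for it. Longer words that contain CGCTG differed between clusters. For each cluster the word of 10 bases holding CGCTG in most of its members was taken, so it was picked on these promoters, and it was then counted on both strands of the whole window. GGTGGCGCTG was in 12 of 14 beta promoters, all but PCDHB1 and PCDHB14, in no alpha or gamma promoter and in 0.276% of all windows. GCGCCGCTGT was in 8 of 19 gamma promoters and 0.131% of all windows, and GATGTCGCTG was in 6 of 13 alpha promoters and 0.0427% of all windows. Each of the 2 was absent from the other clusters' members. A member was counted if any of its windows matched (50 windows for the 46 members), whereas the shares of all windows count each window once. A match is a description of the sequence and says nothing of what binds there.

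The clusters differed in their summed base means, which are not adjusted for gene length. All 16 alpha genes had base means below 10 in every one of the authors' deposited tables, the highest being 8.77, and their sum was between 15.4 and 25.5. The 18 beta genes summed to 482 in the authors' deposited table of shFbxo22 libraries and to 119 in that of shLuc libraries, a ratio of 4.06. PCDHB16 alone accounted for 161 and 13.4 of these sums. PCDHB1 was listed at 0 in all tables. The 21 gamma genes summed to 5138 and 5529 in the same tables of shFbxo22 and shLuc libraries, and without PCDHGC3 to 3316 and 2353, a ratio of 1.41. As a ratio, the beta total differed most between hairpins, and the gamma total was lower in the shFbxo22 table with PCDHGC3 and higher without it. Each of these tables pools young and senescent libraries of 1 hairpin, so the totals do not depend on the sign of any fold change. The shFbxo22 totals include the libraries labelled shFbxo22 senescent and so rest on that label.

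PCDHGC3 had the highest level of all members per kilobase of exon that no other member holds in GENCODE v29. On that scale it had 525 normalized counts in libraries labelled shFbxo22 senescent, 594 in young shFbxo22, 1170 in senescent shLuc and 787 in young shLuc cells. PCDHGB7, a B-type gamma gene, was next in the libraries labelled shFbxo22 senescent with 160.1 and in senescent shLuc with 211. PCDHGA12, the last A-type gene, was next in young shLuc cells with 91.1. PCDHB16 was the highest beta gene in the shFbxo22 libraries, with 34.1 in those labelled senescent and 29.9 in young cells, and was at 4.44 in senescent and 1.39 in young shLuc cells.

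Filtering by the authors left different shares of the clusters with an adjusted p. Of the 55 members, 35 had one in all tables and 14 in none: 12 alpha genes and the beta genes PCDHB1 and PCDHB17. The filter acts on the mean over both groups, so a member silent in one group could pass through the other, and counts over members that passed are given as descriptions. No alpha gene was called in any comparison, and none had an unadjusted p under 0.05 in DESeq2's Wald test among the alpha genes with an adjusted p, which were 1 to 4 per comparison.

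**Figure D1:**
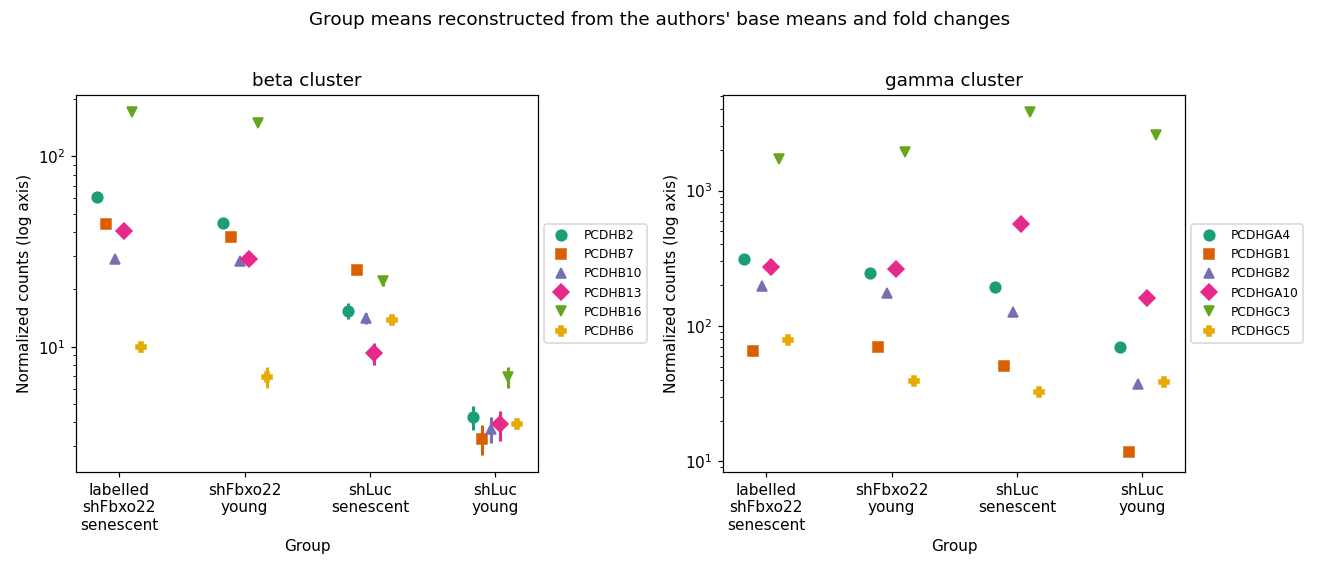
Mean normalized count per group (log axis) of 6 beta and 6 gamma members, rebuilt from the authors' tables, with the 4 groups side by side from libraries labelled shFbxo22 senescent to young shLuc; each marker is the mean of 2 estimates and the bar, often hidden by it, spans them. PCDHB16 stands at 170.4 and 149.6 in the libraries labelled shFbxo22 senescent and young shFbxo22, against 22.2 in senescent and 6.96 in young shLuc cells, while PCDHGC3 is highest in senescent shLuc cells at 3804.

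The first comparison asked how senescence changed the members in cells with the control hairpin. Of 37 members with an adjusted p, 25 rose and none fell in senescent against young shLuc cells (DESeq2 Wald test, unadjusted p under 0.05 downwards: 0). Over all 21889 genes with an adjusted p, 42.6% were called, 21.2% higher and 21.3% lower. Beta genes rose in 10 of 14 cases, with a median log2 fold change of 1.65. Gamma genes rose in 15 of 21 cases, with a median of 0.84, and the median of all genes was -0.0031. Counts of beta genes were low: 3 of the 18 had a base mean of 10 or more in that table, and all 3 were called. These 3 were under 10 in young shLuc cells and reached it through the senescent ones, so that count is a description.

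PCDHB7 had the largest change of the beta genes. It had 25.1 normalized counts in senescent shLuc cells (estimates 24.1 and 26.2) and 3.28 in young shLuc cells (2.70 and 3.86), a log2 fold change of 3.16 ± 0.58 (adjusted p = 2.87e-07) in the authors' deposited table. PCDHB16 had 22.2 normalized counts in senescent and 6.96 in young shLuc cells, with a log2 fold change of 1.78 ± 0.51 (adjusted p = 0.0017) in the authors' deposited table. Both were low in young cells, at a few normalized counts. PCDHB10 had 14.1 in senescent and 3.70 in young shLuc cells, and the authors' deposited table gave a log2 fold change of 2.06 ± 0.61 (adjusted p = 0.00222). PCDHB14 had 26.9 in senescent and 9.36 in young shLuc cells and rose by 1.54 ± 0.46 on the log2 scale in the authors' deposited table (adjusted p = 0.0028). Per kilobase PCDHB14 was the highest beta gene in young shLuc cells, at 1.94, and it is one of the pair whose promoter window lacks the beta word. PCDHB2, PCDHB6, PCDHB15 and PCDHB5 rose by 1.94 ± 0.62, 1.74 ± 0.59, 1.70 ± 0.58 and 1.69 ± 0.65 on the log2 scale in the authors' deposited table, with adjusted p of 0.00535, 0.00882, 0.00926 and 0.0229. Their means were 15.4, 13.9, 14.9 and 9.19 in senescent shLuc cells, against 4.27, 3.95, 4.66 and 2.92 in young shLuc cells. PCDHB9 and PCDHB11 were also called, with log2 fold changes of 1.62 ± 0.63 and 1.52 ± 0.64 in the authors' deposited table. PCDHB3, PCDHB12, PCDHB13 and the pseudogene PCDHB18 did not pass, with values between -0.00 and 1.32 in the authors' deposited table.

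Changes of gamma genes were measured at higher counts and with smaller errors. PCDHGA10 had 568 normalized counts in senescent and 162 in young shLuc cells, a log2 fold change of 1.81 ± 0.14 (adjusted p = 1.05e-37) in the authors' deposited table. PCDHGB7 had 587 in senescent and 208 in young shLuc cells, with 1.49 ± 0.13 on the log2 scale (adjusted p = 4.91e-29) in the authors' deposited table. Both lie late among the variable genes, and per kilobase they stood at 127 and 211 in senescent shLuc cells, against 36.3 and 74.8 in young shLuc cells. PCDHGA4 had 194 in senescent and 69.7 in young shLuc cells, and the authors' deposited table gave 1.48 ± 0.20 (adjusted p = 1.63e-12). PCDHGB2 had 126 in senescent and 37.4 in young shLuc cells, and the authors' deposited table gave 1.76 ± 0.26 (adjusted p = 7.1e-11). PCDHGB6 had 127 in senescent and 42.5 in young shLuc cells, with 1.58 ± 0.24 (adjusted p = 4.66e-10) in the authors' deposited table. Gamma genes of the A and B types, which have their own variable exons but share the constant ones, thus both had members that rose. PCDHGA12 rose by 0.78 ± 0.14, PCDHGA7 by 1.39 ± 0.26 and PCDHGB1 by 2.15 ± 0.42 on the log2 scale in the authors' deposited table, with adjusted p of 2.54e-07, 4.13e-07 and 1.71e-06. Their means were 413, 109 and 50.4 in senescent shLuc cells, against 239.9, 41.9 and 11.7 in young shLuc cells. The other 7 called, PCDHGA2, PCDHGA3, PCDHGA6, PCDHGA9, PCDHGA11, PCDHGB4 and PCDHGC3, had log2 fold changes between 0.38 and 1.80 in the authors' deposited table.

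Of the 3 C types, 1 was called. PCDHGC3 had 3804 normalized counts in senescent and 2557 in young shLuc cells and rose by 0.57 ± 0.12 on the log2 scale (adjusted p = 8.74e-06) in the authors' deposited table. PCDHGC4 and PCDHGC5 were not called, with log2 fold changes of -0.19 ± 0.49 and -0.26 ± 0.34 in the authors' deposited table. The other 4 gamma genes without a call, PCDHGA1, PCDHGA5, PCDHGA8 and PCDHGB3, were between 0.57 and 0.84.

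**Figure D2:**
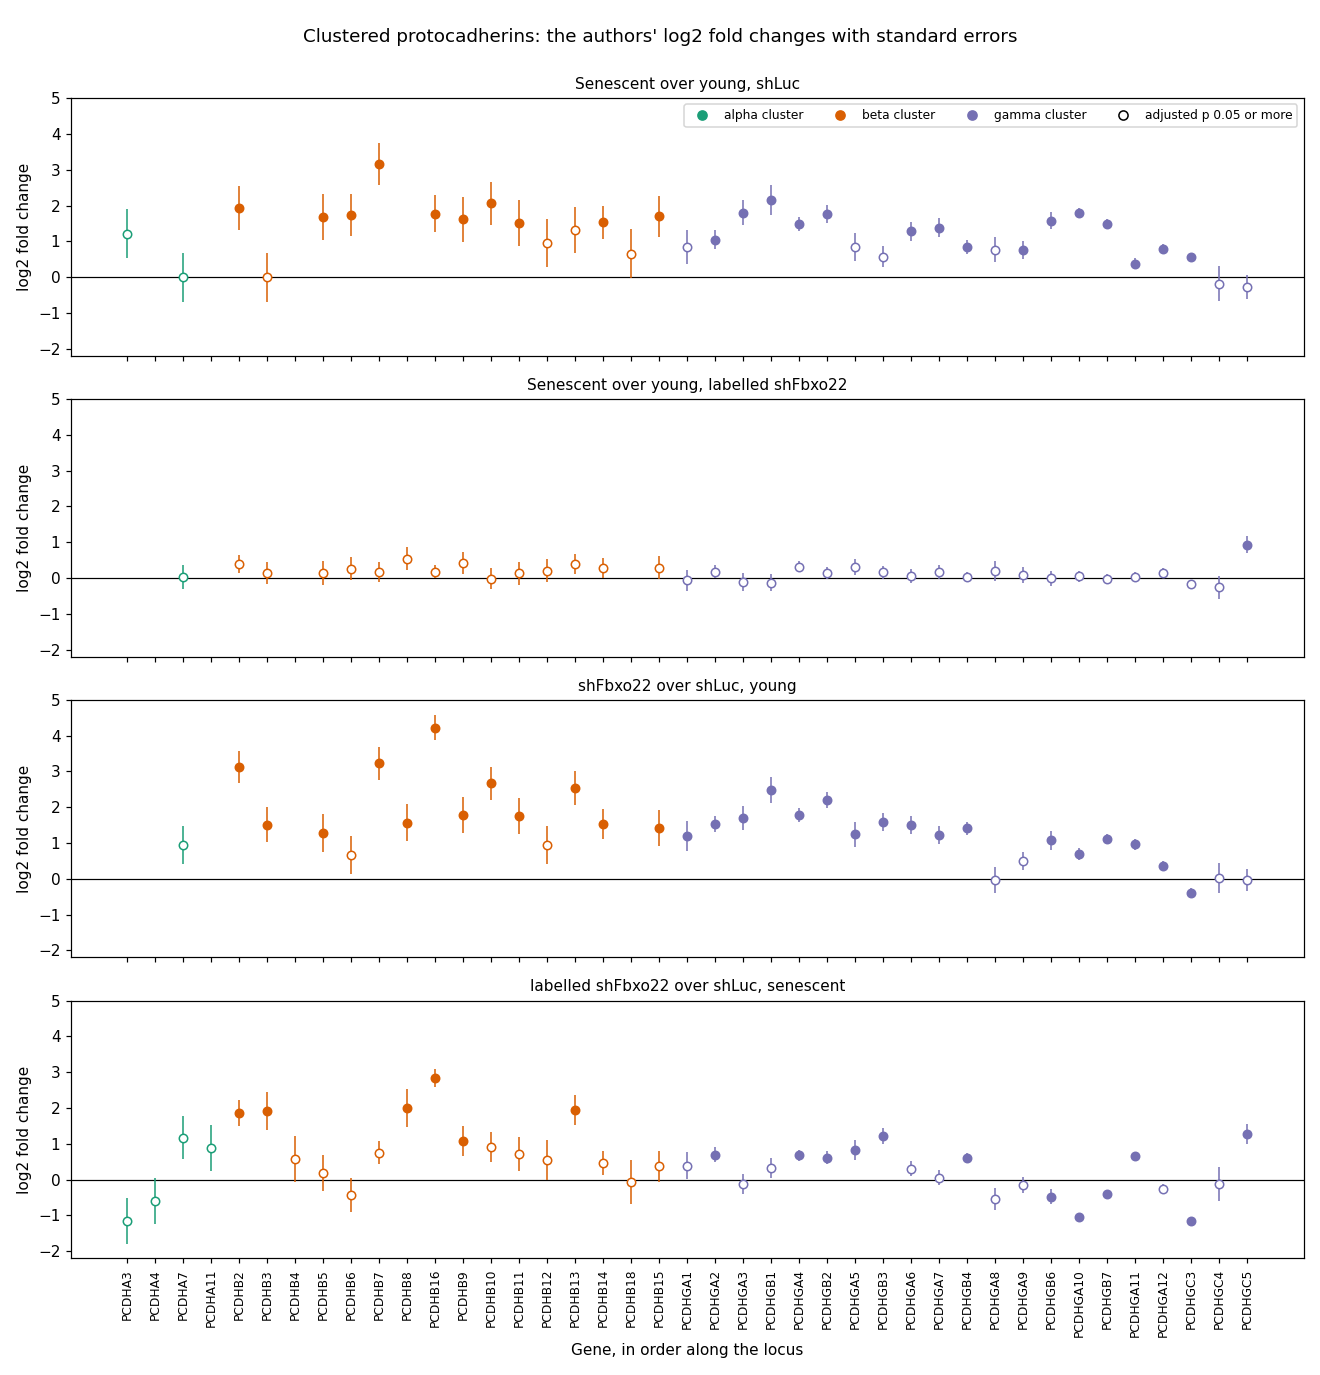
Log2 fold change of each alpha, beta and gamma member with an adjusted p, in the 4 comparisons as the authors deposited them with the sign set to senescent over young or shFbxo22 over shLuc; bars are standard errors and filled markers have an adjusted p under 0.05. Senescence in shLuc cells and shFbxo22 in young cells lie mostly above 0, with medians of 1.32 and 1.41, and senescence in libraries labelled shFbxo22 lies close to 0 with a median of 0.14.

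Senescence was then compared within the hairpin against FBXO22, as libraries labelled shFbxo22 senescent against young shFbxo22 cells. Of 36 members with an adjusted p, 1 was called, against 17.7% of 18758 genes in that table, 8.16% higher and 9.57% lower. No beta gene was called (14 with an adjusted p, unadjusted p under 0.05 in DESeq2's Wald test: 0), and their median log2 fold change was 0.24. The median over the 21 gamma genes was 0.06. PCDHGC5 was the member called: it had 78.8 normalized counts in libraries labelled shFbxo22 senescent and 39.3 in young shFbxo22 cells, a log2 fold change of 0.92 ± 0.24 (adjusted p = 0.00132) in the authors' deposited table. PCDHB16 had 170.4 in libraries labelled shFbxo22 senescent and 149.6 in young shFbxo22 cells, and the authors' deposited table gave 0.17 ± 0.18 (adjusted p = 0.65). PCDHGA10 had 273 in libraries labelled shFbxo22 senescent and 262 in young shFbxo22 cells, with 0.05 ± 0.15 (adjusted p = 0.90) in the authors' deposited table. Fold changes in this table were moderated most, with a largest standard error over all genes of 0.333, against 0.697 in the table of shLuc libraries, so values of low genes in the 2 tables are not on an equal footing.

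The difference between those senescence responses was tested gene by gene, as the shFbxo22 value minus the shLuc value, divided by the joint standard error of both, with Benjamini-Hochberg adjustment over 18598 genes. Of 35 members tested, 16 had a lower response in the libraries labelled shFbxo22 and 1 a higher response, and over all genes 37% were called, 18.1% with a lower and 18.8% with a higher difference. The called members with a lower difference were 3 of 13 beta genes (23.1%) and 13 of 21 gamma genes (61.9%). The median difference was -1.41 over 13 beta genes and -0.87 over 21 gamma genes, against 0.03 over all genes. PCDHGA10 had the smallest adjusted p, with a difference of -1.76 ± 0.20 (standard error; adjusted p = 1.56e-16). PCDHGB7 followed with -1.51 ± 0.18 (adjusted p = 6.87e-16). Among beta genes, PCDHB7 had a difference of -2.99 ± 0.64 (adjusted p = 1.95e-05), PCDHB10 of -2.08 ± 0.67 (adjusted p = 0.00737) and PCDHB16 of -1.61 ± 0.54 (adjusted p = 0.0106). PCDHGC5 went the other way, with 1.19 ± 0.42 (adjusted p = 0.0141). The other 10 beta genes had differences between -1.56 and 0.14 that did not pass, with errors of up to 0.76. The part of the stronger moderation in the shFbxo22 table was not tested. The same difference can also be taken from the pair of hairpin tables, as senescent minus young. That version uses the same libraries, so it is no independent check. PCDHB7 then had -2.47 ± 0.57 and PCDHB16 -1.38 ± 0.43.

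**Figure D3:**
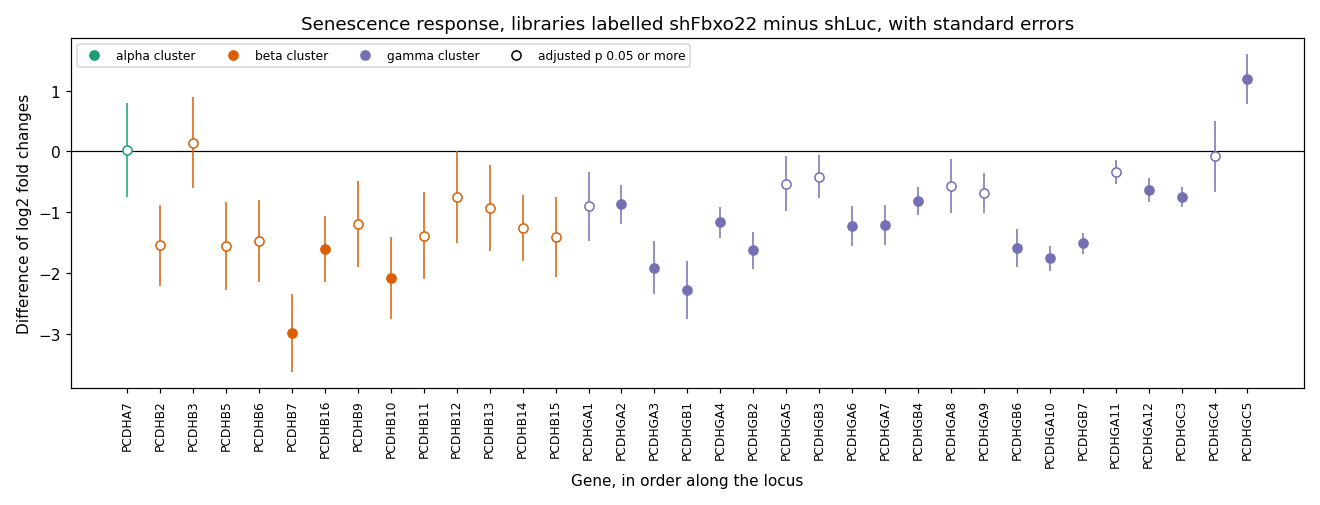
Difference of the senescence responses (libraries labelled shFbxo22 minus shLuc, log2) for the 35 members tested, with standard errors as bars; filled markers have an adjusted p under 0.05 over all genes. The called members lie below 0, from PCDHB7 at -2.99 to PCDHGA12 at -0.63, except PCDHGC5 at 1.19.

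In young cells, shFbxo22 was set against shLuc. Of 36 members with an adjusted p, 28 rose and 1 fell, against 35.9% of 20082 genes called, 18.7% higher and 17.3% lower. Beta genes rose in 12 of 14 cases, with a median log2 fold change of 1.66, and gamma genes of the A and B types in 16 of 18, with a median of 1.23. The median of all genes was -0.01. A base mean of 10 or more was reached by 6 beta genes, and all 6 were called. These 6 were under 10 in young shLuc cells and reached it through the shFbxo22 cells, so that count is a description. The young shLuc libraries are the reference here and in the shLuc senescence comparison, so the values of these comparisons are not independent.

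PCDHB16 had 149.6 normalized counts in young shFbxo22 cells (estimates 147 and 152) and 6.96 in young shLuc cells (6.04 and 7.87). Its log2 fold change was 4.23 ± 0.35 (adjusted p = 1.59e-32) in the authors' deposited table, an 18.7-fold difference and the largest of any member. PCDHB2 had 44.5 in young shFbxo22 and 4.27 in young shLuc cells, with 3.11 ± 0.45 on the log2 scale (adjusted p = 4.82e-11) in the authors' deposited table. PCDHB7 had 37.8 in young shFbxo22 and 3.28 in young shLuc cells, and the authors' deposited table gave 3.22 ± 0.47 (adjusted p = 9.47e-11). All 3 carry GGTGGCGCTG in the promoters shown above, as do most beta genes whatever their change. PCDHB10 and PCDHB13 rose by 2.67 ± 0.47 and 2.54 ± 0.47 on the log2 scale in the authors' deposited table, with adjusted p of 1.38e-07 and 5.5e-07. Their means were 28.3 and 28.8 in young shFbxo22 cells, against 3.70 and 3.91 in young shLuc cells. PCDHB14, PCDHB9 and PCDHB11 rose by 1.52 ± 0.42, 1.79 ± 0.51 and 1.75 ± 0.51 on the log2 scale in the authors' deposited table, with adjusted p of 0.00125, 0.00175 and 0.00229. Their means were 29.4, 17.3 and 13.9 in young shFbxo22 cells, against 9.36, 3.92 and 3.34 in young shLuc cells. The other beta genes called, PCDHB3, PCDHB8, PCDHB15 and PCDHB5, were between 1.28 and 1.57, and PCDHB6 and PCDHB12 did not pass at 0.66 ± 0.52 and 0.94 ± 0.53 in the authors' deposited table. Per kilobase PCDHB16 stood apart from the other beta genes in young shFbxo22 cells, at 29.9, with PCDHB2 next at 10.8.

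PCDHGB2 had the smallest adjusted p of the gamma genes, with 176 normalized counts in young shFbxo22 and 37.4 in young shLuc cells and a log2 fold change of 2.19 ± 0.23 (adjusted p = 2.04e-20) in the authors' deposited table. PCDHGA4 had 247 in young shFbxo22 and 69.7 in young shLuc cells, with 1.79 ± 0.20 (adjusted p = 5.55e-18) in the authors' deposited table. PCDHGB4 had 338 in young shFbxo22 and 125 in young shLuc cells, with 1.40 ± 0.18 (adjusted p = 2.79e-14) in the authors' deposited table. These are variable genes from the first and middle stretches of the cluster. PCDHGB7 had 449 in young shFbxo22 and 208 in young shLuc cells, and the authors' deposited table gave 1.10 ± 0.14 (adjusted p = 9.88e-14). PCDHGB1 had 70.0 in young shFbxo22 and 11.7 in young shLuc cells, and the authors' deposited table gave 2.48 ± 0.36 (adjusted p = 5.86e-11), the largest change of any gamma gene. PCDHGA2, PCDHGB3 and PCDHGA11 rose by 1.53 ± 0.23, 1.59 ± 0.24 and 0.97 ± 0.15 on the log2 scale in the authors' deposited table, with adjusted p of 6.51e-10, 1.07e-09 and 2.43e-09. Their means were 138, 123 and 451 in young shFbxo22 cells, against 46.7, 39.5 and 228 in young shLuc cells. The other 8 variable genes called, PCDHGA1, PCDHGA3, PCDHGA5, PCDHGA6, PCDHGA7, PCDHGA10, PCDHGA12 and PCDHGB6, had log2 fold changes between 0.35 and 1.70 in the authors' deposited table.

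PCDHGC3 was the member that fell. It had 1933 normalized counts in young shFbxo22 and 2557 in young shLuc cells, a log2 fold change of -0.41 ± 0.14 (adjusted p = 0.0103) in the authors' deposited table. PCDHGC4, at 0.03 ± 0.42, and PCDHGC5, at -0.04 ± 0.31 in the authors' deposited table, were not called, nor were PCDHGA8 and PCDHGA9.

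The size of the change differed along the gamma cluster. Over the 21 gamma genes in their order along the locus, the Spearman correlation between order and the log2 fold change of young shFbxo22 over young shLuc was -0.83. The median log2 fold change was 1.53 over the first 11 genes and 0.42 over the last 10. For senescence in shLuc cells the coefficient was -0.53, with medians of 1.29 and 0.77 over the same genes. It was -0.10 for libraries labelled shFbxo22 senescent over young shFbxo22 and -0.39 for them over senescent shLuc. The order ends with the 3 C types. Over the 18 A and B types alone the coefficients were -0.75 for young shFbxo22 over young shLuc and -0.26 for senescence in shLuc cells, and the medians of the last 7 were 0.69 and 0.78. Over the same 18 genes it was -0.01 for libraries labelled shFbxo22 senescent over young shFbxo22 and -0.54 for them over senescent shLuc. The genes share their libraries and constant exons, and the first 2 comparisons share the young shLuc libraries, so these coefficients are descriptions without a test.

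In senescent cells, the libraries labelled shFbxo22 were set against shLuc. Of 41 members with an adjusted p, 14 were higher and 4 lower, against 40.1% of 22788 genes called, 20.2% higher and 19.9% lower. Of 16 beta genes, 6 were higher and none lower (DESeq2 Wald test, unadjusted p under 0.05 downwards: 0), with a median log2 fold change of 0.74. Gamma genes went both ways, with 8 higher (38.1%) and 4 lower (19%) of 21 and a median of 0.31. The gamma share called lower was thus near that of all genes. So was the share of members called in either direction, 43.9%. The direction of each of these values rests on the label of the senescent shFbxo22 libraries.

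PCDHB16 had 170.4 normalized counts in libraries labelled shFbxo22 senescent and 22.2 in senescent shLuc cells (estimates 20.7 and 23.6), a log2 fold change of 2.85 ± 0.25 (adjusted p = 8.53e-28) in the authors' deposited table. PCDHB2 had 61.1 in libraries labelled shFbxo22 senescent and 15.4 in senescent shLuc cells, with 1.85 ± 0.37 (adjusted p = 3.11e-06) in the authors' deposited table. PCDHB13 had 40.4 in libraries labelled shFbxo22 senescent and 9.24 in senescent shLuc cells, and the authors' deposited table gave 1.95 ± 0.42 (adjusted p = 1.7e-05). Per kilobase PCDHB16 was again the highest beta gene in the libraries labelled shFbxo22 senescent, at 34.1, with PCDHB2 at 14.8. PCDHB8, PCDHB3 and PCDHB9 were higher by 2.01 ± 0.53, 1.91 ± 0.53 and 1.08 ± 0.43 on the log2 scale in the authors' deposited table, with adjusted p of 0.000629, 0.00123 and 0.0316. Their means were 18.5, 17.6 and 26.1 in libraries labelled shFbxo22 senescent, against 3.76, 3.94 and 11.5 in senescent shLuc cells. PCDHB7 did not pass, with 44.3 in libraries labelled shFbxo22 senescent and 25.1 in senescent shLuc cells and a log2 fold change of 0.75 ± 0.33 (adjusted p = 0.0513) in the authors' deposited table. PCDHB6, not called, was at -0.43 ± 0.48 in the authors' deposited table.

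PCDHGC3 and PCDHGB7, the highest members per kilobase in senescent shLuc cells, were among the gamma genes that were lower. PCDHGC3 had 1708 normalized counts in libraries labelled shFbxo22 senescent and 3804 in senescent shLuc cells, a log2 fold change of -1.16 ± 0.10 (adjusted p = 1.7e-30) in the authors' deposited table. PCDHGA10 had 273 in libraries labelled shFbxo22 senescent and 568 in senescent shLuc cells, with -1.06 ± 0.13 (adjusted p = 7.19e-16) in the authors' deposited table. PCDHGB7 had 446 in libraries labelled shFbxo22 senescent and 587 in senescent shLuc cells. It and PCDHGB6 were lower as well, at -0.40 ± 0.11 (adjusted p = 0.00149) and -0.48 ± 0.20 (adjusted p = 0.045) on the log2 scale in the authors' deposited table. These 4 lie in the later part of the cluster, as do PCDHGA11 and PCDHGC5, which were higher.

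Higher in the libraries labelled shFbxo22 senescent were PCDHGB3, with 138 normalized counts against 58.3 in senescent shLuc cells, and PCDHGA11, with 466 against 297. Their log2 fold changes were 1.22 ± 0.22 (adjusted p = 2.56e-07) and 0.64 ± 0.13 (adjusted p = 2.17e-06) in the authors' deposited table. PCDHGC5 had 78.8 in libraries labelled shFbxo22 senescent and 32.5 in senescent shLuc cells, with 1.27 ± 0.28 (adjusted p = 3.15e-05) in the authors' deposited table. PCDHGA4 and PCDHGB4 were higher by 0.67 ± 0.15 and 0.61 ± 0.14 on the log2 scale in the authors' deposited table, with adjusted p of 3.92e-05 and 4.65e-05. Their means were 312 and 346 in libraries labelled shFbxo22 senescent, against 194 and 225 in senescent shLuc cells. The other 3 called, PCDHGA2, PCDHGB2 and PCDHGA5, were between 0.61 and 0.82 in the authors' deposited table. PCDHGC3 and PCDHGC5 are C types joined to the same constant exons, and their calls in this comparison had opposite signs. PCDHGC4, which lies between them, was not called, at -0.13 ± 0.47 in the authors' deposited table.

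**Figure D4:**
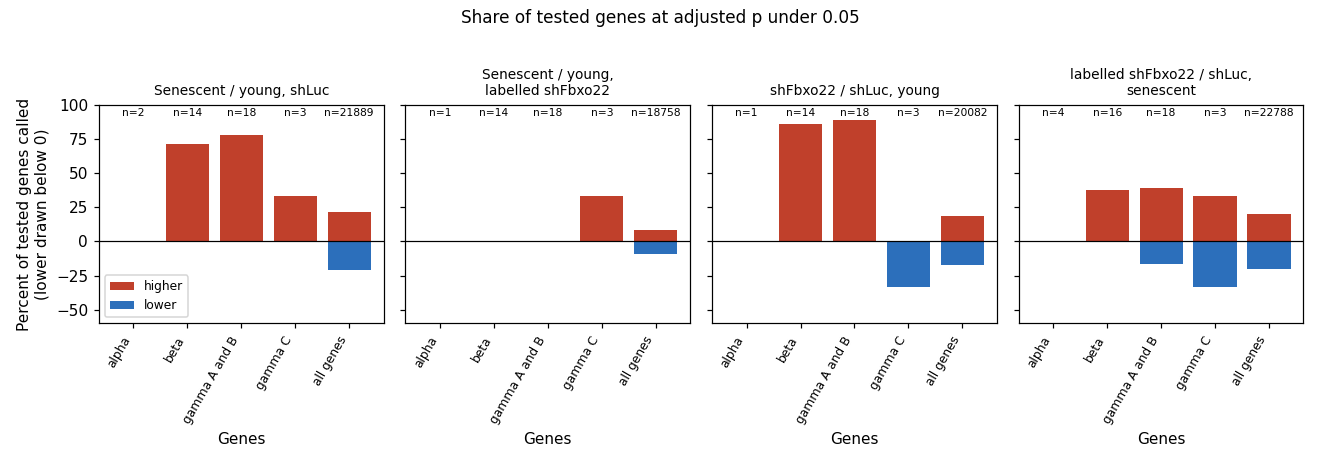
Percentage of genes with an adjusted p that were called higher and lower in each comparison, for the alpha and beta clusters, the A and B types of gamma gene, the C types and all genes; lower calls are drawn below 0. In senescent against young shLuc cells 10 of 14 beta genes, 14 of 18 A or B types and 1 of 3 C types were higher, against 21.2% of all genes.

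Lists of related genes were counted beside the members, to be read against the shares of all genes called higher and lower, which were 21.2% and 21.3% for senescence in shLuc cells and 18.7% and 17.3% for shFbxo22 in young cells. They were 8.16% and 9.57% for libraries labelled shFbxo22 senescent against young shFbxo22 cells, and 20.2% and 19.9% against senescent shLuc cells. Of the nonclustered protocadherins, which lie elsewhere and have no shared constant exons, 2 of 8 rose and 1 fell in senescent against young shLuc cells. PCDH18 rose by 0.81 ± 0.08 and PCDH10 fell by 1.37 ± 0.20 on the log2 scale in the authors' deposited table. In young shFbxo22 against young shLuc cells 1 of 6 rose and 2 fell, and in libraries labelled shFbxo22 senescent against young shFbxo22 cells 2 of 5 rose. In libraries labelled shFbxo22 senescent against senescent shLuc cells 4 of 9 were higher and 1 lower. PCDH10 was at 1.79 ± 0.19 there in the authors' deposited table.

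Of 11 cadherins and catenins, proteins of cell adhesion, 2 rose and 7 fell with senescence in shLuc cells. CDH2 (N-cadherin) fell by 1.70 ± 0.09 and CDH6 by 2.11 ± 0.15 on the log2 scale in the authors' deposited table. In young shFbxo22 against young shLuc cells 4 rose and 5 fell, with CDH1 at -2.19 ± 0.51 in the authors' deposited table. In libraries labelled shFbxo22 senescent against young shFbxo22 cells 4 rose and 4 fell. In those labelled shFbxo22 senescent against senescent shLuc cells 7 were higher and 2 lower.

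Of 22 chromatin factors known from protocadherin promoter choice or silencing, 3 rose and 9 fell in senescent against young shLuc cells, and 2 rose and 16 fell in young shFbxo22 against young shLuc cells. UHRF1, which brings the maintenance DNA methyltransferase to replicating DNA, had log2 fold changes of -3.39 ± 0.13 and -2.10 ± 0.12 in those comparisons in the authors' deposited tables. DNMT1, that methyltransferase, was at -1.92 ± 0.09 and -1.41 ± 0.09, and SMC1A, a cohesin subunit, at -1.33 ± 0.12 and -1.01 ± 0.12 in the authors' deposited tables. CTCF was at -0.23 ± 0.10 (adjusted p = 0.0488) and -0.44 ± 0.11 (adjusted p = 0.000155) in the authors' deposited tables. In libraries labelled shFbxo22 senescent against young shFbxo22 cells, where 1 protocadherin member was called, 1 rose and 5 fell. UHRF1 was at -1.83 ± 0.17, DNMT1 at -0.87 ± 0.10 and SMC1A at -0.41 ± 0.13 there in the authors' deposited table. Against senescent shLuc cells 2 factors were higher and 14 lower, with SMCHD1, a silencer of the protocadherin locus in mouse, at -1.10 ± 0.12 in the authors' deposited table. Their part in the protocadherin values was not tested.

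Of 9 signalling and cleavage partners, 7 rose and none fell with senescence in shLuc cells (DESeq2 Wald test, unadjusted p under 0.05 downwards: 0). FYN, a kinase of the Src family, rose by 1.38 ± 0.10 on the log2 scale and PSEN2, a catalytic subunit of gamma-secretase, by 0.94 ± 0.11 in the authors' deposited table. In young shFbxo22 against young shLuc cells 6 rose and none fell (unadjusted: 0). None was called in libraries labelled shFbxo22 senescent against young shFbxo22 cells (unadjusted p under 0.05: 1, lower), and against senescent shLuc cells 1 was higher and 4 lower.

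Growth markers differed in every comparison. MKI67, a marker of cycling cells, was at -3.43 ± 0.10 in senescent against young shLuc cells and at -2.43 ± 0.10 in young shFbxo22 against young shLuc cells in the authors' deposited tables. CDKN1A, the p21 cell cycle inhibitor, was at 2.12 ± 0.10 and 4.51 ± 0.10 in the same tables the authors deposited. In libraries labelled shFbxo22 senescent against young shFbxo22 cells, MKI67 was at -3.67 ± 0.13 and CDKN1A at 2.34 ± 0.10 in the authors' deposited table. Against senescent shLuc cells they were at -2.78 ± 0.14 and 4.80 ± 0.09 in the table the authors deposited. Whether growth state bears on the protocadherin values was not tested. Of the 5 neuronal markers, all had reads in every table, and DLG4 held most of their summed base mean of 469 to 756 in the authors' deposited tables. DLG4 and STMN2 were at 0.67 ± 0.13 and 0.85 ± 0.21 in senescent against young shLuc cells, and DLG4 was at -0.32 ± 0.13 in young shFbxo22 against young shLuc cells in the authors' deposited tables. DLG4 and STMN2 were at -0.94 ± 0.13 and -1.57 ± 0.23 in libraries labelled shFbxo22 senescent against senescent shLuc cells in the authors' deposited table. The part of these markers was not tested either.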

How the data were processed

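RNA was measured in 12 libraries of HCA2 cells, 3 per group, grouped by sample title. RNeasy-purified total RNA went into Ion Total RNA-Seq libraries, per the labels' protocols. R 3.2.2, DESeq2 1.14.1, STAR 2.3.0 and Bowtie2 2.0.0 are named with GRCh37 and hg19, without roles, per the submitters' processing notes. Per the file headers, each of 4 tables of 55765 rows holds the authors' base mean (mean normalized count over 6 libraries, a signal), log2 fold change, its standard error, a Wald test score, a p-value and an adjusted p-value. Depth per library is unknown. Dates stood for symbols in 28 rows, which were left out.

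The sign of each table was settled from the numbers: of 16 choices, the one used brought the paired estimates of a group's mean to within 0.0092 on average (absolute log2, 9109 genes at a base mean of 200 or more), against 0.1306 for the next. It turns the shFbxo22 senescence table and the senescent hairpin table, whose deposited signs are the opposite of those printed. Members without an adjusted p stayed without one. The difference of senescence responses was a normal z test with Benjamini-Hochberg adjustment. It was tried only on fold changes simulated under its own assumptions, without the unequal moderation of the real ones. Named per comparison were up to 8 called members per cluster with the smallest adjusted p, and up to 4 genes per list. Members and lists were chosen with earlier results of these data known. Alternatives were a stricter threshold, a base mean or fold filter, no filter with the adjustment redone, and the difference taken from the hairpin tables. No genome of the files' build was used; order and exon lengths came from GENCODE v29.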

Additional observations from a re-analysis of the deposited data

Results flagged for a closer look

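For 17 of the 35 members tested, the senescence response differed between the hairpins by the test of the difference itself (adjusted p under 0.05 over all genes). Over all 18598 genes 37% were called, 18.1% with a lower and 18.8% with a higher difference. The lower calls were 23.1% of the beta genes tested and 61.9% of the gamma genes. The 17 differences are given here as log2 values, libraries labelled shFbxo22 minus shLuc. In the beta cluster they were -2.99 for PCDHB7, -2.08 for PCDHB10 and -1.61 for PCDHB16. Among the A types of the gamma cluster they were -0.87 for PCDHGA2, -1.92 for PCDHGA3, -1.17 for PCDHGA4, -1.23 for PCDHGA6, -1.21 for PCDHGA7, -1.76 for PCDHGA10 and -0.63 for PCDHGA12. Among the B types they were -2.28 for PCDHGB1, -1.63 for PCDHGB2, -0.82 for PCDHGB4, -1.59 for PCDHGB6 and -1.51 for PCDHGB7. The C types PCDHGC3 and PCDHGC5 had -0.75 and 1.19. These values rest on the label of the senescent shFbxo22 libraries, whose FBXO22 level went against it. The part of the stronger moderation in the shFbxo22 senescence table was not tested.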

How the results depend on the processing

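With a base mean of at least 10, the calls among beta genes came to 3 of 3 for senescence in shLuc cells and 6 of 6 for shFbxo22 in young cells, against 10 and 12 of 14, since fewer beta genes were then tested. Those beta genes were under 10 in young shLuc cells and passed through the group where they were higher. Their shares called are therefore descriptions and say nothing of robustness. With a log2 size of at least 1 as well, no member and no gamma gene was called for senescence in libraries labelled shFbxo22 (0 and 0, against 1 and 1). For libraries labelled shFbxo22 senescent against senescent shLuc cells, that setting gave 10 calls, against 18, and 4 among gamma genes, against 12. These settings leave the deposited fold changes as they are. Of the values of single members, 14 lost their call at an adjusted p under 0.01, 22 with the log2 size, 5 without the filter on low counts, and 2 gained one with the base mean filter. An alternative chosen after seeing the data took the difference of responses from the hairpin tables, and all 35 members kept their direction and side of the threshold. It contrasts the same 4 groups and libraries, so that outcome was largely fixed in advance and is no independent check. No paired analysis was possible because only group-level tables were used, and for the same reason no library could be left out in turn. All alpha genes had base means under 10 in every table, as did between 5 and 15 of the 18 beta genes per table.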
